A study of Arabidopsis thaliana with 6 samples.

Results

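Calmodulin-like proteins are small calcium sensors of plants. The genes described here are 10 loci of *Arabidopsis thaliana*, the calmodulin-like genes CML42, CML43, CML41, CML37, CML38 and CML23, the calmodulin-like loci AT3G01830 and AT1G76640, and the small EF-hand loci AT4G27280 and AT2G46600. They were listed by locus and looked up in the probe annotation of the array, keeping probe sets that name a single gene. All 10 were found, each with 1 probe set, among 13355 genes measured in this way. The loci were selected on their family and chosen by their difference between protease IV and mock on these same 6 arrays, which was already known, so their differences between the groups are given as a description and without p-values. Where the number of them past the threshold of the fit over all genes is given, it stands beside the same share of all genes and is no test of the 10.

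The seedlings were 10 days old, grown in wells of liquid medium that was renewed on day 8, and no ecotype or transgene is named in the labels. The treated group received 20 nM purified protease IV, a secreted protease of *Pseudomonas aeruginosa* PA14, for 1 h. The mock group is called nontreated in some labels, which do not say whether its wells received buffer or were mixed. The 3 arrays per group are described as biological replicates, but the division of wells or cultures among them is not given, so the spread between arrays may be partly technical.

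When a plant cell meets a microbial signal, calcium enters its cytosol within minutes, and proteins with EF-hands, helix-loop-helix motifs that bind calcium, change shape and pass the signal to their partners. Calmodulin is the shared sensor of all eukaryotes. Plants add a large family of calmodulin-like proteins, or CMLs, most of which consist of little more than EF-hands, and several CML genes are known to be induced by wounding, touch, pathogens or microbial elicitors.

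Levels are log2 values from the Affymetrix ATH1 array after robust multi-array averaging (RMA), in which a difference of 1 is a change of 2-fold. Probe sets differ in how strongly they bind, so levels of different genes are not compared with each other, and each gene is instead set against the lower quartile of all probe sets on the same array, which lay between 3.97 and 4.05. Below that line signals are close to background and differences are compressed. The array medians were 6.07 to 6.13. All 10 probe sets carry the plain suffix that the manufacturer gives to sets without known cross-hybridization to other genes. The whole seedling was extracted, so a change in the number of cells that express a gene and a change in the RNA per cell cannot be told apart.

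Of the 10 genes 9 were higher after protease IV and none passed as lower. By at least 2-fold 5 were higher, beside 4.51% of all genes. The 9 genes passed the threshold of an adjusted p under 0.05 in the limma fit over all genes, where 11.4% of the 13355 genes passed as higher, 22.8% as lower and 34.2% in either direction. In the same 9 genes the lowest protease IV array lay above the highest mock array, which was true of 14.7% of all genes. Nothing is read from these counts, since the genes were chosen with this contrast known. The median difference of the 10 genes was 0.96, and that of all genes tested was -0.06. The differences ran from 6.87 down to -0.04. In 4 of the 10 genes the mock mean was below the lower quartile, beside 28.9% of all genes.

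**Figure D1:**
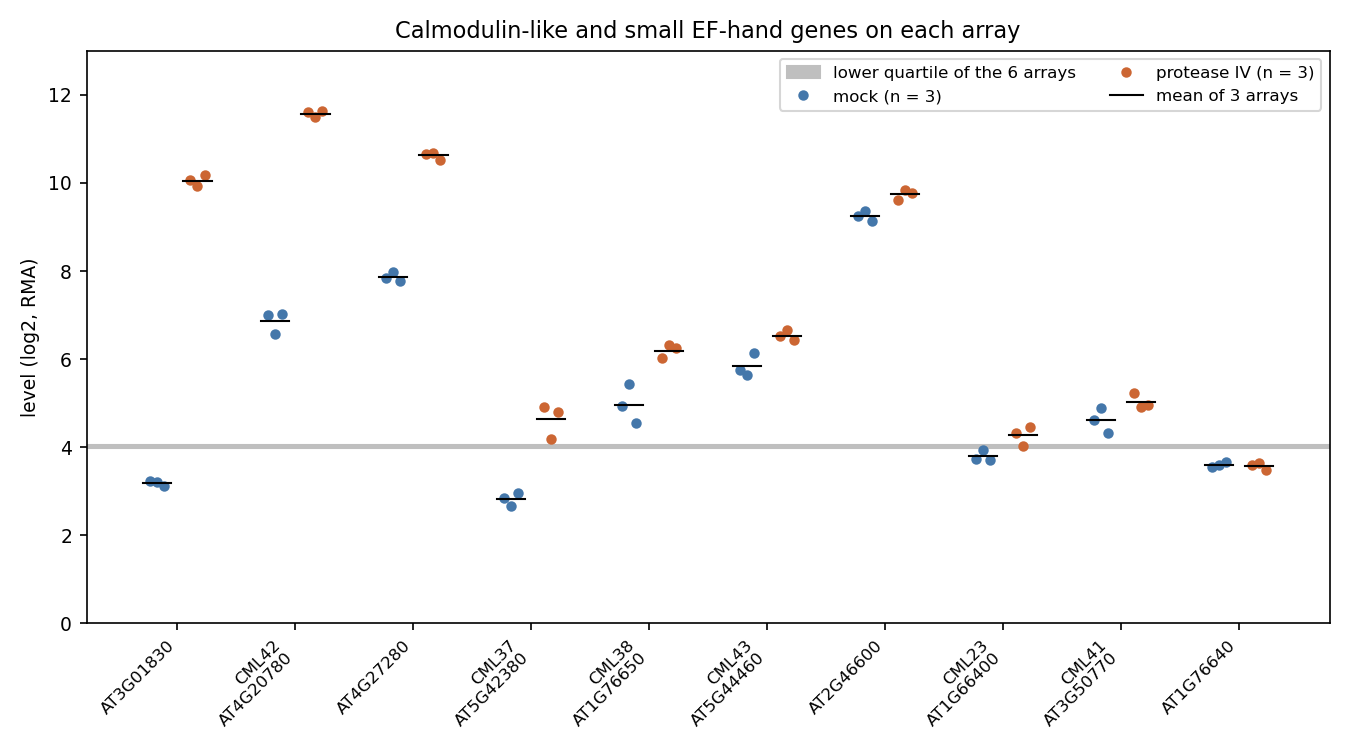
Level of each of the 10 genes on each array (log2, RMA), in blue for the 3 mock arrays and in orange for the 3 protease IV arrays, with a black bar for the mean of each group and a grey band for the lower quartiles of the 6 arrays. The genes stand in the order of their difference: AT3G01830 goes from below the band to about 10, whereas AT1G76640 stays below the band in both groups.

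The largest measured difference among the 10 genes was in AT3G01830, a calmodulin-like locus for which the annotation used here gives no further name. Its level was 3.22, 3.21 and 3.12 on the mock arrays and 10.06, 9.93 and 10.17 on the protease IV arrays. All mock arrays lay below their lower quartile, with a mean of -0.82 relative to it, and all protease IV arrays lay far above theirs, with a mean of 6.03. The means were 3.19 ± 0.0545 and 10.05 ± 0.121 (SD, n = 3 each), a difference of 6.87 (SE 0.083), or 116.7-fold in the measured values. Because the mock signal is at background, the difference and the fold describe the measured values and are not exact. The spread within either group, 0.10 in mock and 0.24 with protease IV from lowest to highest array, was small beside the gap of 6.70 between the groups.

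CML42, a calcium sensor known for its roles in trichome branching and in the defence against insects, was already well above background in mock. It measured 7.00, 6.56 and 7.01 on the mock arrays and 11.60, 11.49 and 11.63 on the protease IV arrays. Mock replicate 2 was the low array of its group, and the lowest treated array still exceeded the highest mock array by 4.48. The difference was 4.72 (SE 0.118), or 26.3-fold. CML42 differs from AT3G01830 in its starting point: its mock mean of 6.86 ± 0.258 (SD, n = 3) lay 2.85 above the lower quartile, where the fold is not set by background.

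CML43, a close relative of CML42, differed far less. Its level was 5.76, 5.63 and 6.13 in mock and 6.52, 6.66 and 6.42 with protease IV. The groups did not overlap, but the gap between them was 0.29, smaller than the range of 0.50 among the mock arrays. The difference was 0.69 (SE 0.124), or 1.62-fold, from a mock mean 1.83 above the lower quartile. Both relatives were thus measured above background in both groups, with differences of 4.72 and 0.69. No test of one gene's difference against the other's was made, since both were chosen with the contrast known.

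CML37, CML38 and AT1G76640, which RefSeq also lists as CML39, are close relatives of each other, and CML38 and AT1G76640 are adjacent genes on the chromosome. CML37, known from wounding, herbivory and drought responses, measured 2.84, 2.66 and 2.96 in mock and 4.91, 4.18 and 4.80 with protease IV. Every mock array lay below its lower quartile and every treated array above it, with means of -1.19 and 0.61 relative to it. The difference was 1.81 (SE 0.168), or 3.51-fold in values that start at background. Protease IV replicate 2 was the low treated array, and the treated range of 0.73 was the widest of the 10 genes in that group.

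CML38, a gene induced by low oxygen and wounding, measured 4.93, 5.43 and 4.55 in mock and 6.02, 6.31 and 6.25 with protease IV. Its mock arrays spread over 0.87, the widest mock range of the 10 genes, with mock replicate 2 highest. The groups stayed 0.59 apart. The difference was 1.22 (SE 0.182), or 2.34-fold, from a mock mean 0.96 above the lower quartile.

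The neighbouring locus AT1G76640 did not share this difference. It measured 3.55, 3.60 and 3.67 in mock and 3.59, 3.63 and 3.49 with protease IV, and the groups overlapped. All 6 arrays lay below their lower quartile, so the gene was not measured above background in either group and a change of a weakly expressed transcript may not be visible. Its difference was -0.04 (SE 0.075), and it is the gene outside the count of 9.

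AT4G27280, a small EF-hand locus, combined a high mock level with a large difference. It measured 7.84, 7.98 and 7.78 in mock and 10.67, 10.69 and 10.52 with protease IV. The arrays of each group lay within 0.20 of each other, and the groups were 2.54 apart. The difference was 2.76 (SE 0.084), or 6.77-fold, from a mock mean 3.86 above the lower quartile.

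AT2G46600, the other small EF-hand locus, had a mock mean 5.24 above the lower quartile. It measured 9.25, 9.37 and 9.13 in mock and 9.61, 9.84 and 9.77 with protease IV. The groups did not overlap, and the gap of 0.25 was about as wide as the range within each group, 0.24 in mock and 0.23 with protease IV. The difference was 0.49 (SE 0.091), or 1.41-fold.

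CML23 and CML41 differed little and close to background. CML23, which is known to act with a close relative in flowering and nitric oxide signalling, measured 3.73, 3.95 and 3.71 in mock and 4.31, 4.03 and 4.47 with protease IV. All 3 mock arrays and 1 of the treated arrays lay below their lower quartile, and the groups were 0.08 apart. Its difference was 0.47 (SE 0.115), or 1.39-fold.

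CML41, whose protein is known from plasmodesmata, the channels between plant cells, measured 4.61, 4.89 and 4.33 in mock and 5.22, 4.91 and 4.96 with protease IV. Mock replicate 2 came within 0.02 of the lowest treated array. The difference was 0.42 (SE 0.137), or 1.34-fold, from a mock mean 0.60 above the lower quartile. CML41 left the count of 9 when any 1 of 4 arrays was left out: its difference was 0.42 without mock replicate 1, 0.28 without mock replicate 3, 0.33 without protease IV replicate 1 and 0.46 without protease IV replicate 3. The count was then 8.

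AT2G46600, CML23 and CML41 had differences of 0.49, 0.47 and 0.42 as deposited, which lay within 1 standard error of each other. They lay further apart with cyclic loess between the arrays, at 0.67 (SE 0.084), 0.50 (SE 0.128) and 0.50 (SE 0.144). AT3G01830, CML37, CML23 and AT1G76640 had mock means below the lower quartile, where differences are compressed. Their place in the order of the 10 genes is therefore that of the measured values only. Among the mock arrays, replicate 2 was the highest for 5 of the 10 genes and the lowest for 3, and among the treated arrays, replicate 2 was the highest for 5 and the lowest for 5.

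**Figure D2:**
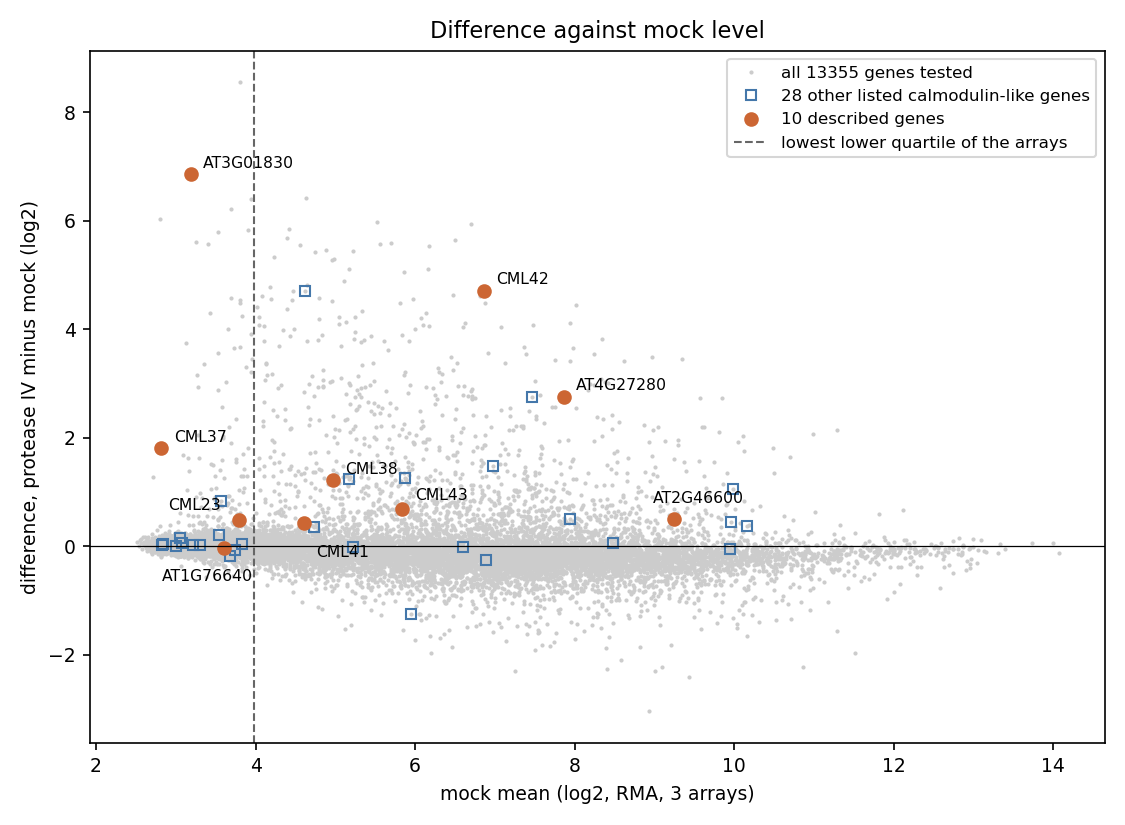
Difference between protease IV and mock (log2, vertical axis) against the mock mean (log2, horizontal axis) for all 13355 genes in grey, the 10 described genes in orange and 28 other listed calmodulin-like genes as blue squares. The dashed line is the lowest lower quartile of the arrays. AT3G01830, CML37, CML23 and AT1G76640 lie to its left, and CML42 and AT4G27280 combine a mock level well to its right with differences of 4.72 and 2.76.

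The plot of difference against mock level shows that large rises from background were uncommon on these arrays. Of the 3860 genes whose mock mean was below the lower quartile, 60 were higher by at least 2-fold, or 1.55%, against 4.51% of all genes. AT3G01830 and CML37 are among those 60. After protease IV only AT1G76640 of the 10 genes still had a mean below the lower quartile, and the number with a mean above the array medians was 6, compared with 3 in mock.

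The rest of the family was taken from a list of calmodulins and CMLs compiled from general knowledge of the family; most of its loci carry no family name in the annotation used here. None of the 7 calmodulin genes in the list was named by a single-gene probe set in that annotation. Of 43 other CML loci 28 were named in this way and so measured. Whether unnamed probe sets of the array cover the unmatched loci was not checked. There were 11 that rose, 2 that fell and 15 that did not pass (limma, adjusted over all genes), with a median difference of 0.05. The share that rose, 39.3%, stands beside 11.4% of all genes. The list was made with earlier results of these data known. The genes described above had also been set apart from it with this contrast known. The remaining loci are therefore no independent set, and their counts and shares are a description and no test of the family. The same limit holds for the loci named from this list below. Of the 15 that did not pass, 11 had both group means below the lower quartile, so that at most 4 were measured above background without passing.

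AT5G39670 rose most among these other loci. It measured 4.71, 4.51 and 4.62 in mock and 9.29, 9.36 and 9.31 with protease IV. The groups lay far apart, and the difference was 4.71 (SE 0.077; limma, adjusted p = 4.46e-11), close to that of CML42. AT3G25600 rose from 7.47 ± 0.092 to 10.22 ± 0.167 (SD, n = 3 each), a difference of 2.75 (limma, adjusted p = 5.12e-09), close to that of AT4G27280. AT3G10300 rose by 1.48 (SE 0.145; limma, adjusted p = 2.01e-05).

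The 2 loci that fell are named because of their small number, after their values were seen. AT3G10190 went from 5.95 ± 0.104 to 4.70 ± 0.115 (SD, n = 3 each), a difference of -1.24 (limma, adjusted p = 1.46e-06). It is the largest fall among the 38 measured calmodulin-like and small EF-hand genes. AT1G73630 differed by -0.25 (limma, adjusted p = 0.0459) and did not pass when any 1 of 5 arrays was left out, nor with cyclic loess between the arrays, where its difference was -0.08 (adjusted p = 0.617). AT4G26470, among the 11 that rose, by 0.35, did not pass without mock replicate 2 or protease IV replicate 3, nor with the arrays centred on the bacterial controls.

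**Figure D3:**
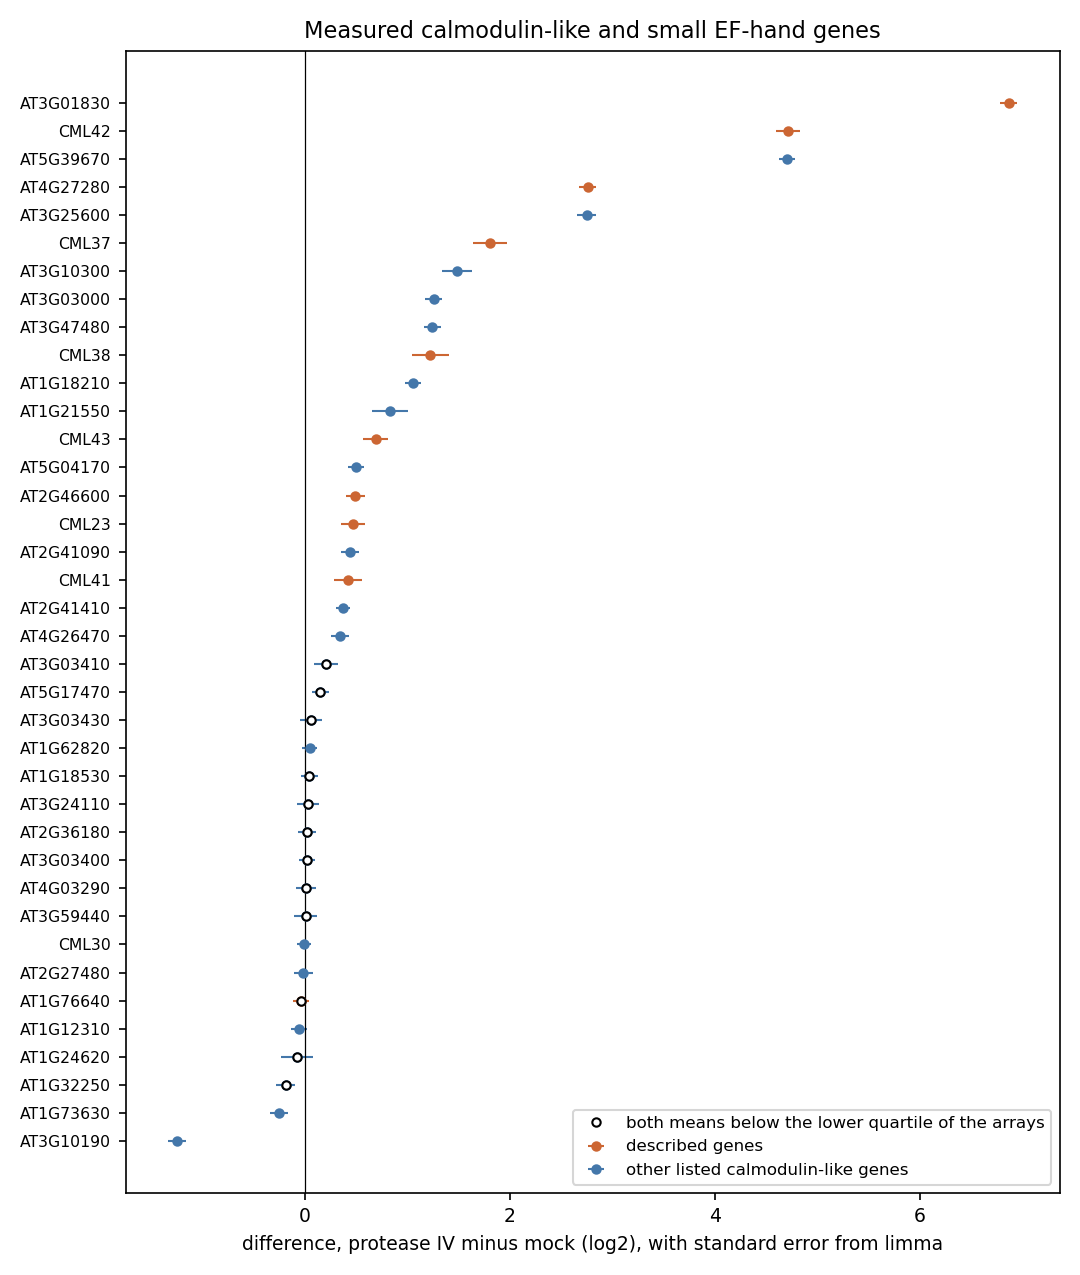
Difference between protease IV and mock (log2) with its standard error for the 38 measured calmodulin-like and small EF-hand genes, the 10 described genes in orange and the 28 other listed genes in blue. Open circles mark genes with a mean under the lower quartile in mock and also with protease IV; they cluster around 0, and the filled points spread from -1.24 to 6.87.

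Other parts of calcium signalling were matched thinly in the annotation used here, in which 8730 of 22810 probe sets were unnamed. None of 36 calcineurin B-like sensors and their kinases and none of 34 calcium-dependent protein kinases was named there by a single-gene probe set. Whether unnamed probe sets of the array cover these decoders of the calcium signal was not checked, so they were not analysed here. Over the remaining lists, 18 genes were measured, of which 8 rose and 2 fell (limma), with a median difference of 0.14. Of all genes tested, 11.4% rose and 22.8% fell, with a median difference of -0.06. The lists were made with earlier results of these data known, so these counts are a description.

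Among 8 measured loci listed as calmodulin-binding transcription factors, which couple calcium-loaded calmodulin to gene expression, 4 rose and 0 fell. The shares of all genes were 11.4% and 22.8%. No further member had an unadjusted p under 0.05 (limma). AT5G57580 rose by 1.04 (SE 0.079; limma, adjusted p = 2.59e-06), AT4G31000 by 0.92 (SE 0.116; adjusted p = 0.000129) and AT1G67310 by 0.79 (SE 0.080; adjusted p = 2.76e-05). AT4G16150 of the same list passed only with cyclic loess, at 0.26.

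Among 9 measured loci listed as calcium-permeable channels 4 rose and 1 fell, beside 11.4% and 22.8% of all genes. GLR2.9, a glutamate receptor-like channel, rose from 3.28 ± 0.084, below the lower quartile, to 5.33 ± 0.017 (SD, n = 3 each), a difference of 2.06 (limma, adjusted p = 6.15e-09). GLR2.8 of the same family rose by 0.70 (limma, adjusted p = 0.000789), again from a mock mean below the lower quartile, and GLR2.7 by 1.49. GLR3.3 fell by 0.62 (limma, adjusted p = 0.00228). GLR3.5 differed by -0.23 without passing (limma, adjusted p = 0.0528, unadjusted p = 0.0183), and it passed as lower under 5 of 17 alternative settings. The exchanger AT1G53210, which RefSeq names NCL, a sodium and calcium exchanger, was the only measured gene of the pumps and exchangers. It differed by -0.23 (limma, adjusted p = 0.0330), a call that was lost when any 1 of 4 arrays was left out, and with cyclic loess (adjusted p = 0.501).

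Genes next to the 10 loci on the chromosome were compared as well, using the gene order of RefSeq (TAIR10.1). Of 20 neighbouring positions, 12 held a measured gene outside the 10: 2 that rose, 2 that fell and 8 that did not pass (limma). Of all genes tested, 11.4% rose and 22.8% fell, and nothing is read from the counts of so few neighbours. AT3G01820, next to AT3G01830, rose by 0.40 (SE 0.089; limma, adjusted p = 0.00581), and AT4G27290, next to AT4G27280, by 0.26 (limma, adjusted p = 0.0362), from means below the lower quartile in both groups. AT3G50780, next to CML41, fell by 0.49, and AT5G42370, next to CML37, fell by 0.40. Neither neighbour of CML42 passed, both differing by -0.14 and both with means below the lower quartile. The differences of these 12 neighbours ran from -0.49 to 0.40, and AT4G27290 did not pass under 9 of the alternative settings.

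For the 3 genes with the largest differences, the measured genes most like them were found by the root mean square distance over the 6 arrays, after each gene's mock mean was subtracted. Nearest to AT3G01830 were AT3G54150 and AT1G30700, at distances of 0.33 and 0.34 on the log2 scale, with differences of 6.41 and 6.42. Nearest to CML42 was AT5G39670, the listed calmodulin-like locus described above, at a distance of 0.12, followed by AT2G25735 at 0.16 with a difference of 4.63. Nearest to AT4G27280 were AT5G64870 at 0.06 and AT5G25440 at 0.08, with differences of 2.77 and 2.79. The nearest gene to AT3G01830 was thus further away than those of the other genes.

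The tissue label was checked with organ markers. The measured shoot markers, 2 of 4 listed, were high in both groups. Their mean per array was 12.59 to 12.64 in mock and 11.92 to 12.17 with protease IV, and LHCB4.2, of the light-harvesting complex, fell by 0.77 (limma, adjusted p = 1.65e-05) and HPR, a leaf peroxisomal enzyme, fell by 0.39 (limma, adjusted p = 0.0110). The mean of the measured root markers, 4 of 5 listed, was 7.30 to 7.38 in mock and 7.22 to 7.35 with protease IV, with the root hair expansin EXPA18 lower by a difference of -0.34 (limma, adjusted p = 0.0253). No measured marker lay below the lower quartile on any array. The part of these shifts in the differences described above was not tested. Cyclic loess ended the calls of HPR and EXPA18, and that of EXPA18 was also lost when any 1 of 4 arrays was left out.

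RNA integrity was read from the 3-prime minus 5-prime difference in 6 pairs of control probe sets. In 2 pairs the groups did not overlap, by a small margin in each. Of these, the actin pair had its highest mock array at 1.582 and its lowest treated array at 1.585. In the GAPDH pair the margin was too small to show in 3 digits. With protease IV against mock, actin was at 1.81 ± 0.276 against 1.58 ± 0.0077 and GAPDH at 0.89 ± 0.106 against 0.73 ± 0.077 (SD, n = 3 each). The exact permutation p was 0.1 in both, the smallest the design allows, or 0.3 adjusted over the 6 pairs. The other 4 pairs overlapped. Their part in the differences was not tested.

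Over the whole array the split of calls depended on the scaling. As deposited, 66.6% of the genes that passed were lower, against 42.4% with cyclic loess. The direction of the 9 higher genes was the same under all 17 alternative settings that kept them. Cyclic loess raised their differences by 0.01 to 0.18, and centring the arrays on bacterial control transcripts lowered them by 0.08.

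**Figure D4:**
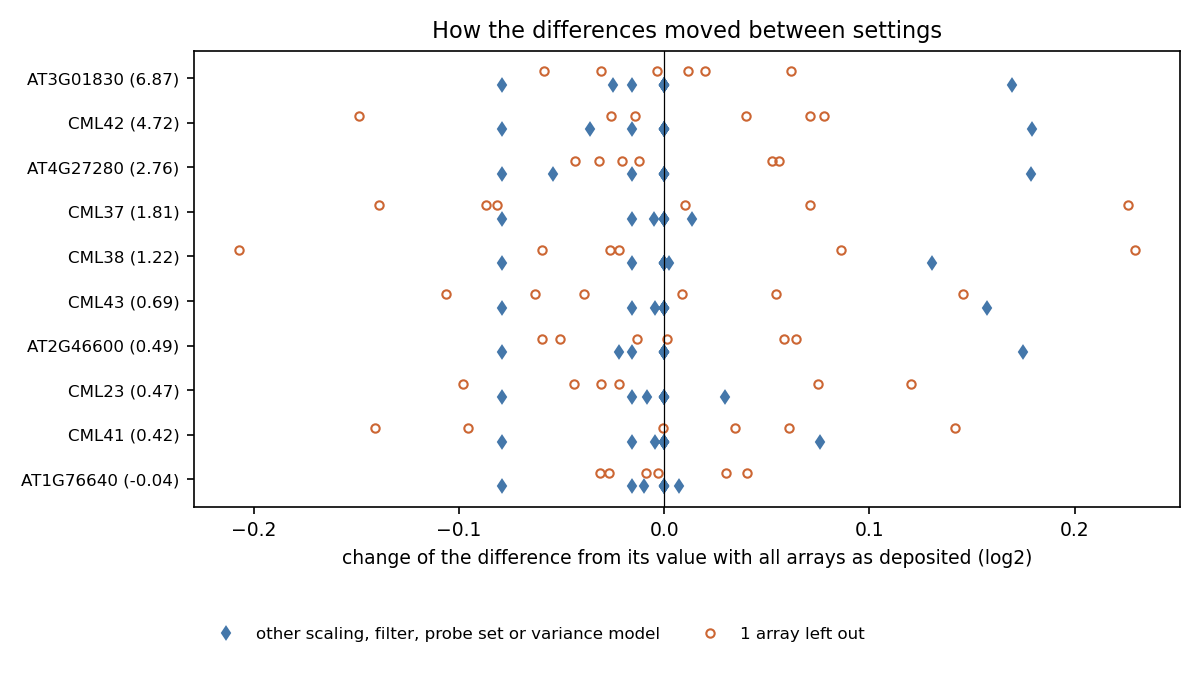
Change of each gene's difference (log2) from its value with all arrays as deposited, which stands in brackets beside its name. Open circles leave out 1 array each and diamonds use another scaling, filter, probe set or variance model; the furthest moves were those of CML38 and CML37, each by 0.23 when 1 array was left out.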

How the data were processed

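RNA of whole seedlings was hybridized to 6 ATH1 arrays, 3 per group. The deposited values are log2 expression levels from RMA as implemented in affy 1.36.1, per the submitters' processing notes, which includes background correction, quantile normalization and a summary per probe set. Quantile normalization gives the probes of every array the same distribution before that summary, so a change of total mRNA cannot be seen.

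Of 22810 probe sets, 64 were controls, 13513 named a single gene in the platform annotation, 503 named several and 8730 were unnamed here. RefSeq (TAIR10.1) gave a locus for 13484 of the 13513, and for 147 genes with more than 1 the probe set with the highest mean was kept, leaving 13355 genes. Groups were compared with limma 3.58.1 (lmFit and eBayes, R 4.3.3), adjusted by Benjamini-Hochberg over all 13355 genes at 0.05. The procedure was tried on simulated data with independent noise per gene, 200 changed genes and no shift between arrays. That trial is simpler than these arrays and does not bear on how the calls depend on the scaling. Standard errors are those of limma, and p-values measure only the spread between these arrays.

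The genes and lists were chosen with earlier results of these data known. Named were the 10 genes, up to 3 genes with the largest differences that passed in each list, measured chromosome neighbours, and the 2 nearest genes in pattern for 3 of the 10. AT1G73630, AT4G26470, AT4G16150, GLR3.3, GLR3.5 and AT3G10190 lie outside this rule and were named after their values were seen. Control probe pairs were compared by a two-sided exact permutation test over 20 relabellings. The alternatives were a replicate block, leaving out each array, filters on dim genes, other scalings, other probe set rules and other variance models. No sequences were used.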

Additional observations from a re-analysis of the deposited data

How the results depend on the processing

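The 17 alternatives, 6 of which leave out 1 array each, were applied to the counts and to 40 named genes. With cyclic loess 1514 genes were lower and 2060 higher, against 3039 and 1525 as deposited; the median difference of all genes was 0.007, against -0.06. The count of the other CML loci that fell went from 2 to 1 with the replicate block and with cyclic loess, and it was 1 to 2 when single arrays were left out. The count over the remaining calcium lists that fell likewise went from 2 to 1 with the replicate block and with cyclic loess, and it was 1 to 2 when single arrays were left out; the genes lost are AT1G73630 and AT1G53210. This last count rose to 3 with both filters on dim genes and with the arrays centred on their median, quantile normalized again or centred on the bacterial controls, GLR3.5 being the gene gained. The count of the other CML loci that rose was 10 with the bacterial controls and 12 with cyclic loess, against 11. Leaving out single arrays gave 1342 to 1491 higher and 2316 to 3214 lower genes, 8 to 9 of the 10 described genes and 10 to 11 of the other CML loci as higher. The filters on dim genes left 7 and 8 of the 10 as higher because fewer of them were tested. The differences of the 10 genes ranged over all alternatives from 6.79 to 7.04 in AT3G01830, from 4.57 to 4.89 in CML42 and from 0.28 to 0.56 in CML41. Of the values of the 30 other named genes under the alternatives, 469 kept their side of the threshold. Another 11 passed that did not before, and 21 no longer passed. The 469 include a change of direction in a gene that did not pass, AT4G27270, from -0.15 to 0.02 with cyclic loess. The cause of these changes was not tested. Signal over background is the limit for CML37, CML23, AT3G01830 and AT1G76640, whose mock means lie below the lower quartile.

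The replicate numbers were not taken to pair the arrays: the deviations of same-numbered arrays from their group means correlated at 0.0379, -0.101 and -0.176. With the replicate block 1441 genes rose and 2738 fell, and the 10 described genes gave 9 calls, as without it.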
